A study of Drosophila melanogaster with 23 samples.

Results

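Chromatin accessibility was compared between nuclei of the D4 domain, which the labels call the central domain of Dichaete, and the nuclei of whole blastoderm embryos of Drosophila melanogaster. The comparison used the peak lists of both D4 libraries and of 8 whole-embryo libraries, out of 22 libraries with a peak list in the series. Peaks of these 10 lists on X, 2L, 2R, 3L, 3R and 4 were merged into 1 region wherever they overlapped by at least 1 bp, which gave 24331 regions. Of these, 20226 held a peak in at least 1 D4 list and 23284 held a peak in at least 1 whole-embryo list.

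Both D4 libraries came from embryos that carried the construct D_central_Hs43_UNC84-3xFLAG, in which an enhancer of Dichaete drives a FLAG-tagged nuclear protein. Replicate 1 was D4 line A and replicate 2 was D4 line B, independent transgenic strains in a wild-type background, and the tagged nuclei were pulled down with an anti-FLAG antibody. The whole-embryo libraries were made from nuclei of transgenic strains of the D1 (hunchback anterior), D4 (Dichaete central), D5 (Kruppel central) and D7 (giant posterior) constructs, in duplicate, without the pull-down. Embryos of all groups were at stage 5 and were frozen 190 min after collection began. A whole-embryo pool also contained the nuclei of the D4 domain, and D4 nuclei and whole embryos differed in the pull-down as well as in position, so that these cannot be told apart by this comparison alone. The 12 libraries of the other tagged domains had the pull-down too and took no part in defining the regions. Their constructs used enhancers of hunchback (D1), Kruppel (D5), giant (D7) and even-skipped, of stripe 2 in D2, stripe 1 in D3 and stripe 5 in D6.

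Dichaete is a Sox-family transcription factor that binds DNA through an HMG domain. In the blastoderm it is expressed in a broad central domain, where it is needed for the correct expression of pair-rule genes and so for segmentation. Maternal and gap factors such as Hunchback, Kruppel and Giant divide the same axis into overlapping bands, and Hox genes are switched on in positional domains of the trunk in response to them. ATAC-seq reads open chromatin by where the Tn5 transposase can insert into DNA, and a peak is a stretch with more insertions than a genomic DNA reference.

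The D4 lists were the longest and the shortest of the 10. Their mean was 20234 peaks, against 20471.9 in whole embryos (exact permutation test over libraries, two-sided, p = 0.711). A test of means cannot show departures in opposite directions. D4 nuclei had 21284 peaks in replicate 1 and 19184 in replicate 2, and whole embryos had 19612 to 21064. Peaks covered 13.8 ± 1.02 Mb in D4 nuclei (SD, n = 2) and 13.1 ± 0.502 Mb in whole embryos (SD, n = 8), a difference of 0.619 Mb (exact permutation test over libraries, two-sided, p = 0.267). The median peak was 462.5 ± 4.95 bp wide in D4 nuclei and 436.75 ± 12.3 bp in whole embryos, with p = 0.0889 in the same exact test, whose smallest possible p is 0.0444. Within line A the difference from its own whole embryos was -1 bp and within line B it was 29 bp. Replicate 2 of D4 held 6280 peaks whose names end in a letter (32.7%), a naming that appears to mark peaks with several summits. The replicate 2 lists of whole embryos held 28.6% to 30.8%, and none of the 5 replicate 1 lists held any. The replicate number therefore also separates 2 kinds of list, and it is used below as a term in the fits to give the difference within each kind.

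A region was called D4-only when both D4 lists and no whole-embryo list had a peak in it, and D4-missing when neither D4 list and all 8 whole-embryo lists had one. There were 223 D4-only regions, 0.917% of all regions, and 130 D4-missing regions, 0.534% of all regions. By contrast 13761 regions were found in all 10 lists. In Fisher's exact test per region, with Benjamini-Hochberg adjustment 0 of 6679 regions (0%) passed a threshold of 0.05; the regions tested were those with a peak in 2 to 8 of the 10 libraries. The smallest p that 2 against 8 libraries can give in this exact test is 0.0222, which gave an adjusted p of 0.420. It was reached by the 223 D4-only and the 130 D4-missing regions, the only ones with an unadjusted p under 0.05 in that test, so both sets are descriptions and not calls.

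**Figure D1:**
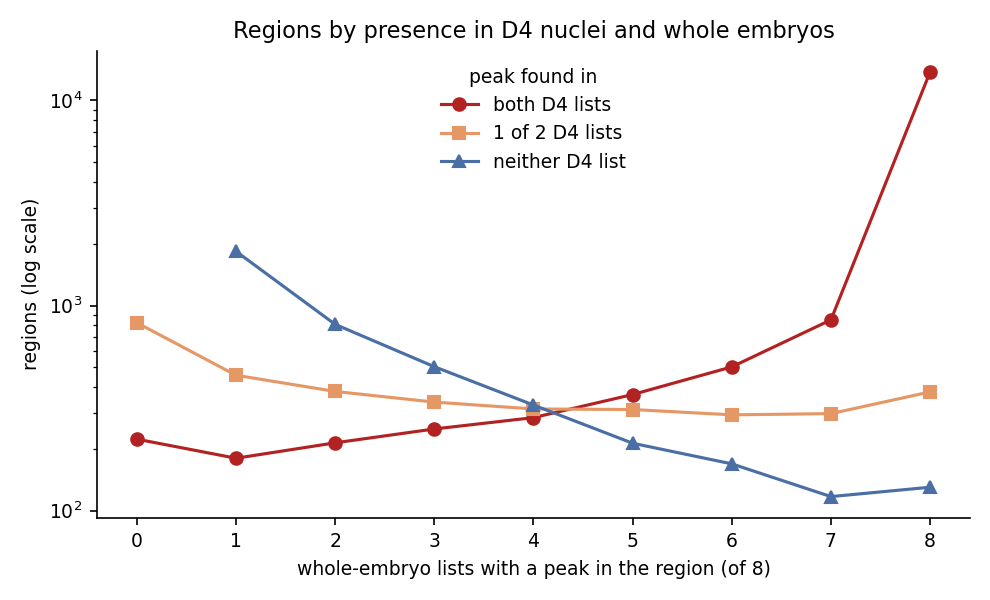
Number of regions (log scale) by the number of whole-embryo lists with a peak in the region (0 to 8), for regions found in both, in 1 and in neither of the D4 lists. Regions of both D4 lists reach 13761 at 8 whole-embryo lists and 223 at 0, and 130 regions of neither D4 list were found in all 8.

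D4-only regions were small and weak among accessible regions, and D4-missing regions were somewhat wider. The median D4-only region was 315 bp long (206 to 894 bp) and its peak stood at a median percentile of 18.6 for peak width within the D4 lists. The median D4-missing region was 408 bp long (220 to 2335 bp), at a median percentile of 31.2 within the whole-embryo lists. Regions of all 10 lists had a median of 717 bp and stood at percentile 64.7. A merged region can grow with the number of lists that have a peak in it, so these lengths are not of like kind. Within single lists the median covered length was 270.5 bp in D4-only, 315.75 bp in D4-missing and 586.5 bp in regions of all 10 lists. The authors' fold enrichment over genomic DNA had a median of 1.71 in D4-only regions, 2.09 in D4-missing regions and 3.89 in regions of all 10 lists. Read depth is unknown here, and its part in both counts was not tested.

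With whole embryos of the D4 strains alone, 452 regions (1.86%) were found in both D4 lists and neither of these 2 lists, and 451 (1.85%) the other way round. With the list of replicate 1 alone on the D4 side, 876 regions were absent from all 8 whole-embryo lists, and with replicate 2 alone 394 were. Without D4 replicate 1, 458 regions of all 8 whole-embryo lists had no peak in D4, against 130 with both D4 libraries. When every list was cut to its 19184 widest peaks the counts were 223 and 133 (0.917% and 0.547%), with 157 D4-only and 87 D4-missing regions shared with the full lists.

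Among the 10 D4-only regions with the widest peaks relative to their lists, none had a peak in any whole-embryo library, by definition. Of these 10 regions 7 had a peak in both D5 libraries, where 40 of all 223 D4-only regions (17.9%) did. The first, 2L 21837721-21838571 (all coordinates are on build dm3), was covered over 851 and 808 bp in D4 replicates 1 and 2. The second, 3R 11865273-11866166, was covered over 894 and 804 bp, and a neighbour, 3R 11864351-11865188, over 795 and 530 bp. These regions were found in 4, 6 and 2 of the 12 other tagged libraries. Close to each other on 3R were also 3R 5821409-5821991, covered over 525 and 566 bp, and 3R 5796556-5797056, covered over 458 and 501 bp. Both were found in each D5 list. The region 2R 7691324-7691998 had 459 and 614 covered bp and was found in both D5 lists and in 1 further list. The region 3R 11162075-11162524 had 440 and 450 covered bp, and X 688107-688570 had 432 and 464 bp, both with a peak in each D5 list. The regions with no peak in either D5 list were 2L 5463795-5464342 (512 and 525 bp) and 3L 15778516-15779028 (513 and 467 bp). The region 3L 15778516-15779028 was found in only 1 of 12 other tagged libraries, D7 replicate 1.

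The 10 D4-missing regions named by the same kind of rule were found in 4 to 10 of the other tagged libraries. The widest, 2L 11436374-11438708, had no peak in either D4 library and was covered over 511 to 2292 bp in whole embryos (median 1439 bp). It was found in all 6 libraries of D1, D2 and D3 and in 1 of 6 of D5, D6 and D7. At 3L 5640758-5642039 whole embryos had 573 to 1280 covered bp (median 960 bp), and all 6 libraries of D1 to D3 and both of D5 had a peak too. The same absence in D5 as in D4 was seen at X 11917895-11919086, with 366 to 1182 covered bp in whole embryos (median 781.5 bp). It was seen as well at X 15650386-15651111 (589 to 706 bp, median 689.5 bp), 3L 15209669-15210349 (575 to 681 bp, median 639.5 bp) and 2R 3933744-3934605 (565 to 862 bp, median 611 bp). In each of these 4 regions 1 of the 6 libraries of D5 to D7 had a peak. The remaining regions, 2L 18970120-18971336, 2L 13772698-13773485, 3R 24857117-24857889 and 2L 2370226-2370991, had whole-embryo medians of 779, 678.5, 636.5 and 637 bp and were found in 1 or both D5 lists. Of the 10 regions, 6 had a peak in every library of D1, D2 and D3, and none had fewer than 3 of these 6 libraries. Of all 130 D4-missing regions 80% were in both D1 lists, 60% in both D2 lists and 54.6% in both D3 lists.

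Arm 3R held 91 D4-only regions, 40.8% of that set, and 24.4% of all regions. Of the regions on 3R, 1.53% were D4-only, against 0.624% to 0.775% on X, 2L, 2R and 3L and 0.211% on 4. D4-missing regions were spread otherwise: 29 of 130 (22.3%) lay on 3R, and the share was highest on 4, where 7 of 475 regions (1.47%) were missing from D4 nuclei.

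Of the 223 D4-only regions, 97 (43.5%) had another D4-only region within 50 kb. The same share was 32.8%, 32.2% and 35.2% in the sets of like size next to it, the 180, 214 and 250 regions of both D4 lists and 1, 2 or 3 whole-embryo lists. Of the 130 D4-missing regions 23 (17.7%) had another D4-missing one, and of the 117 regions of neither D4 list and 7 whole-embryo lists 25 (21.4%) had another of their kind. Accessible regions are unevenly spread and these sets differ in size, so the shares are descriptions and were not tested. Chains of D4-only regions with gaps of at most 50 kb and at least 3 members formed 9 stretches, numbered here along the arms, of which 7 were on 3R. Since the members define a stretch, the counts of regions found within it are descriptions.

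Stretch 5, 3R 2724068-2839198, was the longest, with 18 D4-only regions among 74 regions. D4 nuclei had a peak in 73 and 69 of its 74 regions, and whole embryos in 41 to 45 (median 42). D5 nuclei had a peak in 60 and 68, and libraries of D1 to D3 in 27 to 43, D6 in 38 and 42, and D7 in 42 and 36. Outside the 18 D4-only regions, D4 nuclei still had a peak in 55 and 51 of the other 56 regions, and whole embryos in 41 to 45. Both D4 and both D5 libraries were above every whole embryo and every other tagged library in this stretch.

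Stretch 8, 3R 12490161-12547685, held 11 D4-only regions among 34. D4 nuclei had a peak in 32 and 31 of the 34, whole embryos in 12 to 17 (median 15), D5 nuclei in 26 and 30, and libraries of D1 to D3 in 6 to 12. D6 nuclei had 15 and 31 and D7 nuclei 19 and 15. Without the 11 regions, D4 nuclei had 21 and 20 of 23, and whole embryos 12 to 17. The anterior domains stood below whole embryos or within their range, and the central domains above it.

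Stretch 9, 3R 12629819-12649733, lay at higher coordinates than stretch 8 and had another pattern over domains. D4 nuclei had a peak in 11 and 10 of its 13 regions and every whole embryo in 4. D5 nuclei had 6 and 5, D6 nuclei 4 and 13, D7 nuclei 11 and 12, and D1 to D3 nuclei 3 or 4. Posterior nuclei of D7 were thus as far above whole embryos as D4 nuclei were, while D5 nuclei were nearer to whole embryos.

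The other stretches held fewer D4-only regions than stretches 5 and 8. Stretch 1, 2L 21831523-21887089, had 37 and 32 of 37 regions in D4 nuclei and 22 to 28 in whole embryos, with 29 and 32 in D5 nuclei. Stretch 2, 2R 15683450-15718095, had 12 and 10 of 15 in D4 nuclei and 5 to 9 in whole embryos, with 6 and 7 in D5 nuclei. Stretch 7, 3R 11839319-11866166, had 12 and 10 of 12 in D4 nuclei and 5 to 6 in whole embryos, with 7 and 7 in D5 nuclei. D5 nuclei were within the range of whole embryos in stretch 2 and 1 region above its top in stretch 7, unlike in stretches 5 and 8. Stretch 3 (3R 447231-473636), stretch 4 (3R 793287-809891) and stretch 6 (3R 6338171-6360900) held 3 D4-only regions each. In each of these the highest library of D1 to D3 was above all whole embryos too. It had 11 of 13 regions in stretch 3, 10 of 11 in stretch 4 and 18 of 22 in stretch 6. Whole embryos reached 9, 8 and 14 there, and D4 nuclei had 13 and 12, 11 and 10, and 18 and 22. Libraries of D1 to D3 had 4 to 8 regions in stretch 2 and 5 to 7 in stretch 7. D7 nuclei had 6 and 7 in stretch 2 and 6 and 8 in stretch 7. D4-missing regions formed 1 stretch, X 8530215-8560455, in which D4 nuclei had a peak in 9 and 5 of 17 regions and whole embryos in 9 to 15 (median 13). D5 nuclei had 5 and 8 there and D1 to D3 nuclei 9 to 16.

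**Figure D2:**
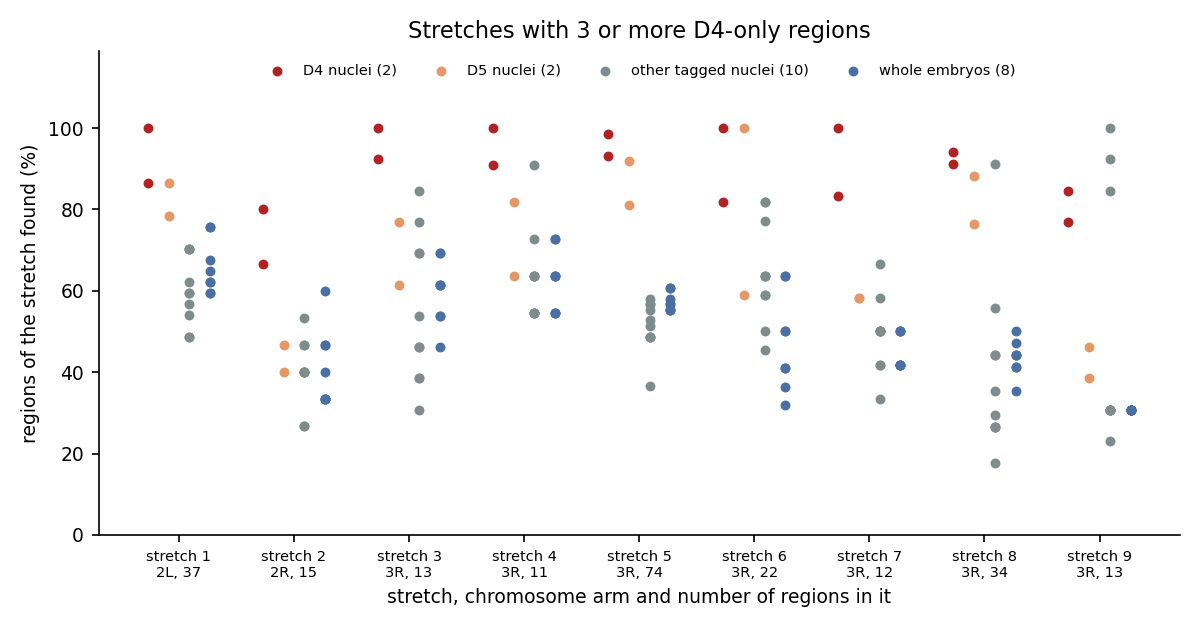
Percent of the regions in each stretch of D4-only regions that had a peak, per library (points), for D4 nuclei, D5 nuclei, other tagged nuclei and whole embryos, with the arm and the number of regions under each stretch. D4 nuclei are above all whole embryos in each of the 9 stretches by the choice of regions, and both D5 libraries are above all whole embryos in stretches 1, 5, 7, 8 and 9, with 60 and 68 of 74 regions in stretch 5.

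In the RefSeq gene table used here, Antp, Ubx and abd-A, Hox genes that set segment identity in the trunk, lie on 3R, as does hunchback, while Dichaete lies on 3L and Kruppel on 2R. That table follows a later assembly than dm3, so no region, stretch or window was linked to a gene, and whether a stretch lies at 1 of these genes was not tested. For the same reason the D4 label was not checked against peaks at marker genes.

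Fixed windows of 100 kb do not depend on which regions were chosen. The bases covered by peaks were summed in each of 1078 windows and compared on the log2(covered bp + 500) scale after each library was centred on its median, with limma over all windows and Benjamini-Hochberg adjustment. D4 nuclei had more covered bases than whole embryos in 16 windows (1.48%) and fewer in 17 (1.58%). Fitted ratios were 1.23 to 1.66 in the 16 windows and 0.637 to 0.837 in the 17. Both D4 libraries lay above all 8 whole embryos in all 16, and below all 8 in 14 of the 17, where over all windows 9.83% and 3.15% were so. The windows are called H1 to H16 and L1 to L17 by their p within a direction.

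**Figure D3:**
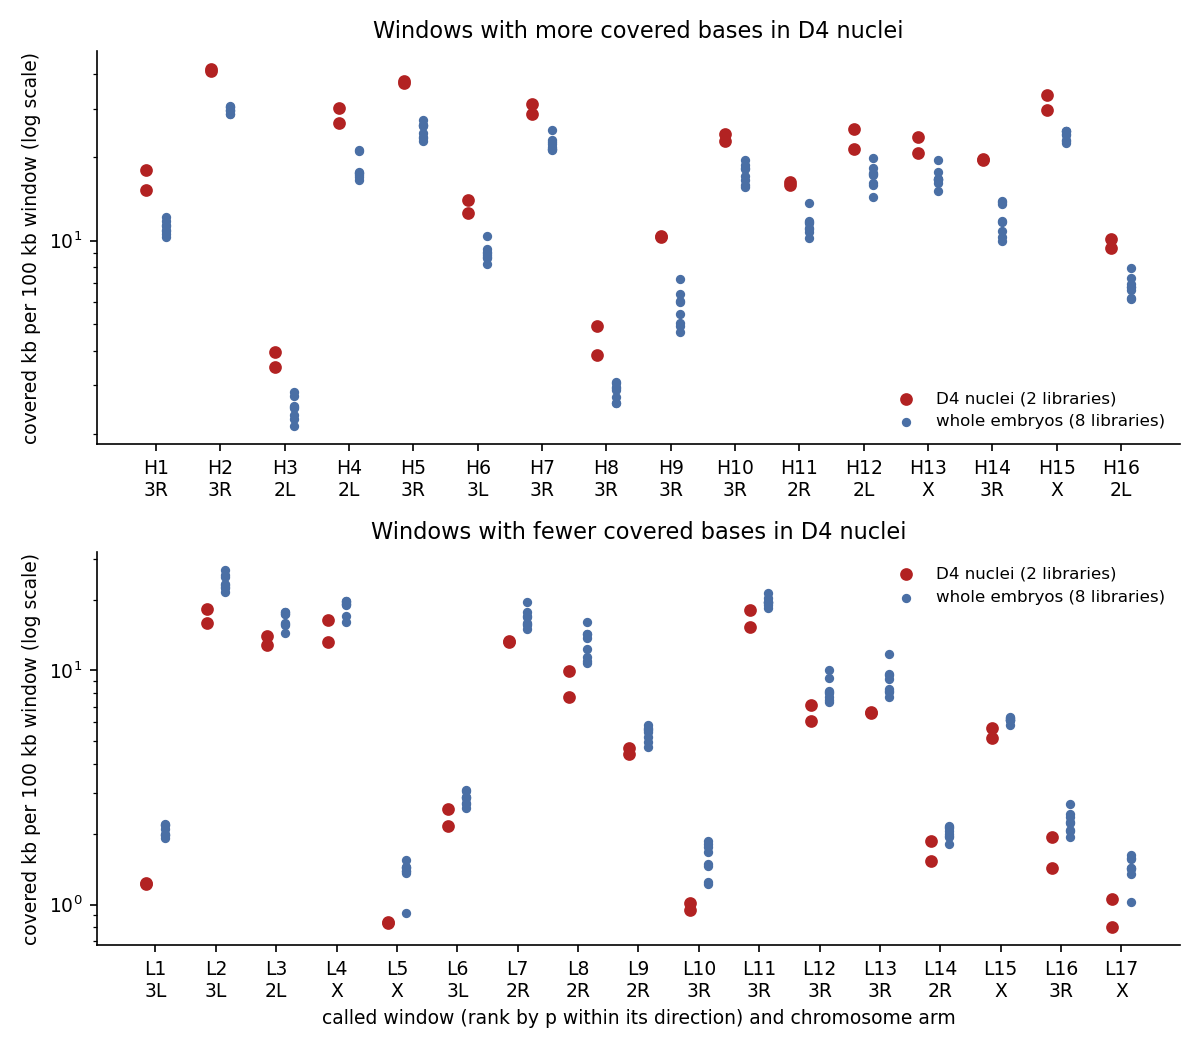
Covered kb per 100 kb window (log scale) in the 2 D4 libraries (red) and the 8 whole-embryo libraries (blue), for the windows with more covered bases in D4 nuclei (top, H1 to H16) and with fewer (bottom, L1 to L17), with the arm under each. In the 16 windows of the top panel both D4 points lie above all 8 whole-embryo points, and L4, L14 and L17 are the windows of the bottom panel where the groups overlap.

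Of the 16 windows, 8 were on 3R, and 7 of these formed 3 blocks of adjoining windows. The block 3R 12400001-12700000 (H1, H2 and H7) contained stretches 8 and 9. In its middle window D4 nuclei had 41841 and 40872 covered bp, and whole embryos 28586 to 30682 (median 29671.5 bp), a log2 difference of 0.39 ± 0.06 (SE; limma adjusted p = 0.00540). In H1 D4 nuclei had 17984 and 15261 covered bp and whole embryos 10301 to 12170 (median 11117 bp), a log2 difference of 0.47 ± 0.06 (SE; limma adjusted p = 0.00313). D5 nuclei had 16618 and 15135 covered bp in H1, also above all whole embryos. In H7 D4 nuclei had 31047 and 28619 covered bp and whole embryos 21286 to 25151 (median 22065 bp). D5 nuclei had 23869 and 23810 bp there, within the range of whole embryos. The top of that range came from D4 whole embryo replicate 1, a value flagged below as far from the others. Whole embryos of replicate 2 reached 22319 bp, below both D5 libraries.

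The block 3R 2700001-2900000 (H5 and H10) contained stretch 5. D4 nuclei had 37838 and 37159 covered bp in H5, and whole embryos 22961 to 27362 (median 25267.5 bp), a log2 difference of 0.50 ± 0.09 (SE; limma adjusted p = 0.0131). In H10 D4 nuclei had 24298 and 22965 covered bp and whole embryos 15661 to 19574 (median 17672.5 bp). D5 nuclei were above all whole embryos in both windows, with 32591 and 41128 bp in H5 and 25207 and 23436 bp in H10.

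The block 3R 5700001-5900000 (H14 and H9) held the highest ratio. In H9 D4 nuclei had 10277 and 10425 covered bp and whole embryos 4690 to 7290 (median 5725.5 bp), a log2 difference of 0.73 ± 0.14 (SE; limma adjusted p = 0.0168). In H14 D4 nuclei had 19627 and 19714 covered bp and whole embryos 9948 to 13961 (median 11727.5 bp). This block contained 5 D4-only regions, among them 3R 5821409-5821991 and 3R 5796556-5797056, and D5 nuclei again lay above all whole embryos, with 8163 and 8769 bp in H9 and 18446 and 21411 bp in H14. The 3 blocks on 3R thus shared their direction in D4 and D5 nuclei, except H7, where D5 nuclei lay within the whole-embryo range. Among the other tagged libraries the highest had 45488 bp in H2, 39657 bp in H7 and 20201 bp in H14, above both D4 libraries. The lowest there had 10473, 9221 and 7639 bp, below all whole embryos. In H1, H5 and H9 the highest, 13808, 28513 and 9185 bp, exceeded all whole embryos but neither D4 library. In H10 the highest, 17476 bp, lay within the range of whole embryos.

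On 2L, H4 (2L 21800001-21900000, around stretch 1) had 30084 and 26564 covered bp in D4 nuclei and 16563 to 21299 in whole embryos. H3 (2L 14600001-14700000) had 3970 and 3483 bp in D4 nuclei and 2129 to 2845 in whole embryos. All 8 whole embryos lay below both D4 libraries in H4 and H3. H6 (3L 8800001-8900000) had 14017 and 12549 bp in D4 nuclei and 8203 to 10410 in whole embryos. H8 (3R 8100001-8200000) had 4902 and 3867 bp in D4 nuclei and 2588 to 3092 in whole embryos. Replicate 1 of D5 was within the range of whole embryos in H6 and H8. Both D5 libraries exceeded all whole embryos in 8 of the 16 windows. For D5 the share over all windows was not counted, so this number has no baseline.

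Windows with fewer covered bases in D4 nuclei were scattered over X, 2L, 2R, 3L and 3R. L1 (3L 13800001-13900000) had 1227 and 1235 covered bp in D4 nuclei and 1926 to 2205 in whole embryos (median 2052.5 bp), a log2 difference of -0.65 ± 0.07 (SE; limma adjusted p = 0.00114). It rests on 6 regions, 2 of them D4-missing, and its adjusted p was 0.610 without those 2. L2 (3L 5600001-5700000) had 18197 and 15982 covered bp in D4 nuclei and 21548 to 26928 in whole embryos (median 23282.5 bp), and contained the D4-missing region 3L 5640758-5642039. In L3 (2L 11400001-11500000) D4 nuclei had 14050 and 12875 covered bp and whole embryos 14453 to 17721. D5 nuclei had 10632 and 11740 bp in L3, also below all whole embryos. Both D5 libraries were so in 8 of the 17 windows, again without a share over all windows. L4 (X 8500001-8600000, around the D4-missing stretch) had 16411 and 13168 bp in D4 nuclei and 16104 to 19846 in whole embryos, so the groups overlapped. L5 (X 22000001-22100000) had 845 and 831 bp in D4 nuclei and 917 to 1554 in whole embryos, over 4 regions. The next by p were L6 (3L 17700001-17800000), L7 (2R 15500001-15600000), L8 (2R 2100001-2200000), L9 (2R 15800001-15900000) and L10 (3R 9900001-10000000), where D4 nuclei lay below all whole embryos, with fitted ratios of 0.655 to 0.810.

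The windows called with more covered bases held 55 of the 223 D4-only regions (24.7%), and 573 of all 24331 regions (2.36%). The windows with fewer held 11 of the 130 D4-missing regions (8.46%), and 297 of all regions (1.22%). When the peaks in both sets of regions were left out, a count made after the calls were seen, 8 of the 16 and 12 of the 17 windows were still called. The windows H1, H2 and H7 were among the 8, with limma adjusted p of 0.0173, 0.0460 and 0.0474, and H5 and H10 were not, with 0.0708 and 0.0558.

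With the kind of list as a term in the fit, 28 windows had more covered bases in D4 nuclei and 39 fewer, and all 16 and 17 were among them. Against the whole embryos of the D4 strains alone 0 windows (0%) passed in either direction in limma, with 40 higher and 77 lower at an unadjusted p under 0.05. With the strain as a block in that fit, 20 windows (1.86%) were higher and 34 (3.15%) lower, with 11 and 13 of the above among them. Without centring, 24 windows were higher and 3 lower (88.9% higher against 48.5%), all 16 higher windows passed, and of the lower ones only L1, L2 and L5 did. The calls need both D4 libraries: without replicate 1 there were 0 higher and 0 lower windows, and without replicate 2 there were 0 higher and 1 lower, with 39 and 87, and 50 and 76, at an unadjusted p under 0.05 in limma. Without replicate 2 of the D4 whole embryos 27 windows were lower.

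Regions found in all 10 libraries were compared by width, the bases covered by peaks in the region, on the log2 scale with each library centred on its median over the 13761 regions. In limma, 96 regions (0.698%) were wider in D4 nuclei and 241 (1.75%) were narrower. Widths of the groups did not overlap in all 96 and in 223 of the 241, while over all regions both D4 libraries lay above all whole embryos in 11.7% and below all of them in 3.84%. Fitted ratios were 1.18 to 3.11 for wider regions (median 1.56) and 0.219 to 0.879 for narrower ones (median 0.732). The ratio was at least 2 in 16 of the wider regions and at most 0.5 in 27 of the narrower ones. Without centring, 220 were wider and 139 narrower, 61.3% wider against 28.5% with centring, so the balance between the directions depends on the scaling, though 95 of the 96 and 137 of the 241 were still called.

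**Figure D4:**
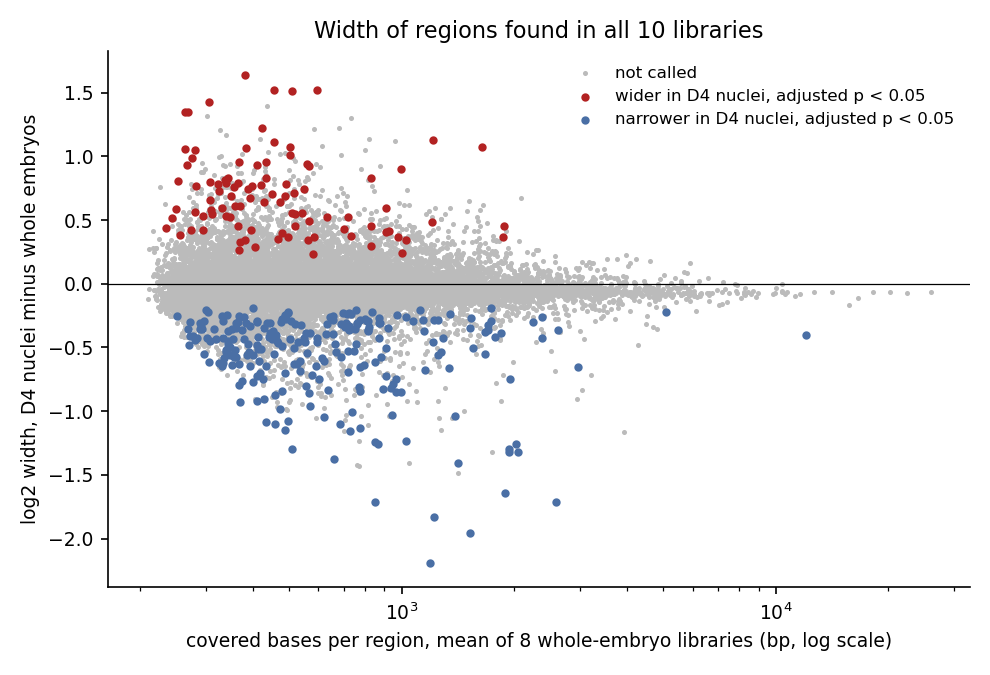
Log2 difference in width between D4 nuclei and whole embryos (centred) against the mean covered bases in whole embryos (bp, log scale), 1 point per region found in all 10 libraries, with regions called wider (96, red) and narrower (241, blue) at an adjusted p under 0.05. The narrower regions include several of more than 1000 bp whose width in D4 nuclei was below that of whole embryos by more than 1 on the log2 scale.

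The smallest p among narrower regions belonged to a pair on 3R. At 3R 26677422-26680051 the peak covered 826 and 834 bp in D4 nuclei and 2548 to 2630 bp in whole embryos (median 2579.5 bp), a log2 difference of -1.72 ± 0.05 (SE; limma adjusted p = 1.26e-07). D5 nuclei had 1754 and 870 bp there and the other tagged libraries 814 to 2597 bp. At 3R 20583883-20585894 D4 nuclei had 654 and 627 covered bp and whole embryos 1678 to 1984 (median 1907 bp), a log2 difference of -1.64 ± 0.05 (SE; limma adjusted p = 1.26e-07). D5 nuclei had 811 and 681 bp in this region. In both regions all D4 and all D5 libraries lay below all whole embryos.

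At 3R 18864825-18865722 D4 nuclei had 257 and 291 covered bp and whole embryos 739 to 897 (median 864.5 bp), with 215 and 385 bp in D5 nuclei. At 3R 9727009-9729029 D4 nuclei had 730 and 949 bp and whole embryos 1861 to 2003 (median 1934 bp), with 726 and 972 bp in D5 nuclei. In both regions D5 nuclei lay below all whole embryos too. The other narrower regions named by the smallest p were 3R 11409152-11409639 (266 and 240 bp in D4 nuclei, 465 to 486 in whole embryos), 2R 19756267-19756991 (356 and 321, against 611 to 715), and 3L 20285667-20286761 (589 and 546, against 869 to 1055). They also included X 2332137-2333324 (773 and 759, against 1131 to 1187) and, on the fourth chromosome, 4 1013696-1014222 (244 and 209, against 424 to 519) and 4 105458-105950 (225 and 207, against 398 to 479). At 4 105458-105950 D5 nuclei had 400 and 492 bp, so that this region was narrow in D4 but not in D5 nuclei. Chromosome 4 had 8 narrower regions among 275 (2.91%), and the other arms 1.41% to 1.88%.

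Wider regions lay on all 6 arms and covered a median of 752.25 bp in D4 nuclei and 417 bp in whole embryos. At 3L 13103786-13104929 D4 nuclei had 1124 and 1137 covered bp and whole embryos 518 to 631 (median 551 bp), a log2 difference of 0.94 ± 0.06 (SE; limma adjusted p = 8.32e-05). D5 nuclei had 447 and 256 bp there, below all whole embryos, and the other tagged libraries 0 to 1143 bp. At 3L 8884581-8885313, in window H6, D4 nuclei had 713 and 733 bp and whole embryos 224 to 306 (median 273 bp), a log2 difference of 1.35 ± 0.11 (SE; limma adjusted p = 0.000159), with 634 and 491 bp in D5 nuclei. The regions thus differed in whether D5 nuclei were wide as well.

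At 3R 19574666-19575775 D4 nuclei had 982 and 1110 covered bp and whole embryos 363 to 476 (median 430 bp), with 599 and 463 bp in D5 nuclei. At 2L 7781983-7782533 D4 nuclei had 539 and 539 bp and whole embryos 246 to 286 (median 269 bp), with 279 and 251 bp in D5 nuclei. At X 357769-358527 D4 nuclei had 681 and 754 bp, whole embryos 377 to 420 and D5 nuclei 366 and 677. In each of these regions both D4 libraries were wider than all whole embryos and all D5 libraries. The remaining wider regions by p were 2L 19902760-19903245 (471 and 465 bp in D4 nuclei, 234 to 271 in whole embryos), 3L 1485015-1485854 (838 and 815, against 365 to 468), 3L 14173907-14174493 (584 and 556, against 293 to 355), 3L 8713041-8713455 (392 and 401, against 242 to 255) and 2L 18945431-18946215 (785 and 603, against 352 to 425). Of the 96 wider regions 22 (22.9%) lay in the windows H1 to H16, against 298 of all 13761 regions (2.17%). Of the 241 narrower regions 21 (8.71%) lay in L1 to L17, against 151 of all regions (1.10%), and 2 lay in H1 to H16. Windows and widths were computed from the same peaks, so these shares are not separate evidence.

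With the kind of list as a term, 132 regions were wider and 290 narrower, with 90 and 235 of the above among them. Against the whole embryos of the D4 strains alone 0 regions passed in limma with or without the strain as a block, where at an unadjusted p under 0.05 there were 549 wider and 634 narrower without it and 744 and 761 with it. Without D4 replicate 2, 142 regions were narrower.

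The rank of the authors' signal, the highest fold enrichment over genomic DNA in a region turned into a percentile within its list, was compared over 13015 regions found in all 10 lists after these were cut to equal length. In limma, 11 regions ranked higher in D4 nuclei (0.0845%) and 68 ranked lower (0.522%). At 3R 9736482-9737610 D4 nuclei stood at the 19.8 and 19.0 percentile and whole embryos at 65.4 to 78.0 (median 67.7), a difference of -50.3 ± 3.64 points (SE; limma adjusted p = 0.000669). At 2R 13717592-13718228 D4 nuclei stood at 4.31 and 0.688 and whole embryos at 41.1 to 48.5 (median 46.5), a difference of -43.3 ± 2.80 points (SE; limma adjusted p = 0.000459). The next in order were 2L 12089000-12089892, with 10.8 and 19.8 in D4 nuclei and 57.0 to 68.2 in whole embryos, X 6938368-6939781, with 15.6 and 23.2 against 54.6 to 67.9, and 2L 3833656-3834662, with 25.5 and 35.7 against 64.0 to 76.7. These 5 regions were narrower in D4 nuclei as well, with limma adjusted p for width of 0.000198 to 0.0330. The groups did not overlap in any of them, but they were picked by the smallest p. The share of all regions without overlap in rank was not counted.

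Among the regions that ranked higher, 3L 13061773-13062535 stood at the 27.5 and 36.1 percentile in D4 nuclei and at 0.373 to 10.8 in whole embryos (median 2.03), a difference of 28.4 ± 3.42 points (SE; limma adjusted p = 0.00933). The region 2L 5968775-5969635 stood at 44.7 and 59.9 in D4 nuclei and at 3.78 to 22.0 in whole embryos. The region X 501249-501690 stood at 51.4 and 53.0 in D4 nuclei and at 10.6 to 30.2 in whole embryos, and it alone of the 5 named was called wider too (limma adjusted p for width = 0.0168). The others were 2L 15480574-15481445, at 19.6 and 24.9 in D4 nuclei and 0.350 to 6.50 in whole embryos, and 3L 22123703-22124566, at 45.4 and 39.6 in D4 nuclei and 7.55 to 23.2 in whole embryos. Of the 68 regions that ranked lower, 37 were called narrower, which is 54.4% of the rank calls and 15.4% of the width calls, and of the 11 that ranked higher 2 were called wider.

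The number of rank calls depended on the kind of list. With the kind as a term there were 233 higher regions (1.79%) and 206 lower ones (1.58%), which contained all 11 and all 68. Over the 6124 regions without a lettered peak, 183 ranked higher (2.99%) and 172 lower (2.81%). Of the 11 and 68 regions, 3 and 46 were among these calls, and regions with a lettered peak were not tested there. More regions were called without D4 replicate 1 and fewer without D4 replicate 2, in fits with 1 library on the D4 side. In both fits most of the 68 lower regions were not called again, nor were some or all of the 11 higher ones. Leaving out replicate 2 of the D4 whole embryos gave 30 higher regions, and leaving out D5 whole embryos, replicate 1 or replicate 2, or D7 whole embryos replicate 1 gave 4, 5 and 4. The lower regions numbered 36 without replicate 1 of the D5 whole embryos and 43 without replicate 1 of the D7 whole embryos.

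The 12 other tagged libraries allowed D4-only and D4-missing regions to be looked up where they had not been chosen. D5 nuclei had a peak in 35.9% and 37.7% of the 223 D4-only regions. The other 10 libraries had a peak in 1.35% to 32.3% of them, with 25.1% and 17.0% in D1, 8.52% and 17.5% in D3, 12.6% and 1.35% in D2, 1.79% and 32.3% in D6, and 15.7% and 17.5% in D7. Both D5 libraries thus stood above the other 10. The mean share was 36.8 ± 1.27% in D5 (SD, n = 2) and 14.9 ± 9.59% in the other domains (SD, n = 10), a difference of 21.8 points (exact permutation test over libraries, two-sided, p = 0.0303, the smallest that 2 of 12 libraries allow). This test treats the 12 libraries as independent, although they come in pairs of a domain, and both D3 libraries were from 1 strain. With domains as units D5 was 1 of 6, and the exact permutation test gave p = 0.333, the smallest it can give, so at that level the difference could not pass 0.05.

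This difference was smaller in lists of equal length. With the other tagged lists cut to their 16830 widest peaks, and D4-only regions taken from cut lists, it was 7.49 points (exact permutation test, p = 0.303). The set of regions thus changed along with list length, and the part of each was not tested. Among lists without lettered peaks D5 had 35.9%, and D1 and D7 25.1% and 15.7%, and among the lettered lists D5 had 37.7% and the others 1.35% to 32.3%. Regions of all 10 lists were found in 99.0 ± 0.257% in D5 and 95.4 ± 2.89% in the others (SD, n = 2 and n = 10; exact permutation test, p = 0.0606). Regions of both D4 lists and 1 to 7 whole-embryo lists were found in 72.2 ± 1.47% in D5 and 49.5 ± 14.5% in the others (exact permutation test, p = 0.0606), so that D5 lists also held more of regions that were not D4-only. Of the D4-only regions 40 (17.9%) were in both D5 lists, 99 (44.4%) in neither, and 38 (17.0%) in none of the 12 other tagged lists.

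D4-missing regions were found more often in anterior than in more posterior tagged nuclei. D1 nuclei had a peak in 93.1% and 82.3% of the 130 regions, D3 nuclei in 79.2% and 56.9%, and D2 nuclei in 83.8% and 64.6%. D5 nuclei had a peak in 46.2% and 37.7%, D6 nuclei in 46.2% and 10.0%, and D7 nuclei in 32.3% and 26.2%. No library of D5 to D7 reached the lowest of D1 to D3.

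In the comparison of D5 with the other domains the difference was -15.5 points (exact permutation test, two-sided, p = 0.515), with shares of 10.0% to 93.1% among those other domains. A grouping chosen after these shares were seen gave 33.1 ± 13.7% in D5 to D7 and 76.7 ± 13.4% in D1 to D3 (SD, n = 6 each), a difference of -43.6 points (exact permutation test over libraries, p = 0.00216; with domains as units p = 0.1, the smallest that 3 against 3 allow). As the grouping followed the shares, these p-values describe it and do not test it. The difference was -42.0 points in lists of equal length. It was present within both kinds of list, with 46.2% and 32.3% in D5 and D7 and 93.1% in D1 among lists without lettered peaks, and 10.0% to 46.2% in D5 to D7 and 56.9% to 83.8% in D1 to D3 among the lettered lists. Regions of both D4 lists and 1 to 7 whole-embryo lists were found in 55.4 ± 17.4% in D5 to D7 and 51.1 ± 15.3% in D1 to D3 (exact permutation test, p = 0.656). Regions of all 10 lists were near the top of the scale in every tagged library, at 90.7% to 99.2%, and cannot serve as a contrast. For D4-only regions the same grouping gave 23.5 ± 14.1% in D5 to D7 and 13.7 ± 8.20% in D1 to D3 (exact permutation test, p = 0.180).

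**Figure D5:**
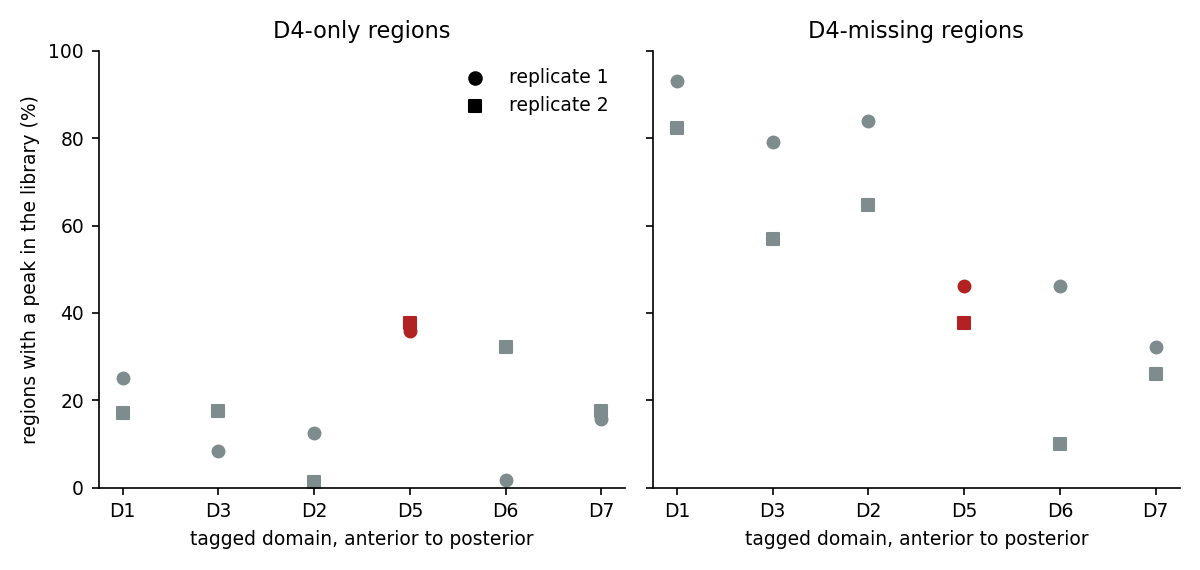
Percent of the 223 D4-only regions (left) and of the 130 D4-missing regions (right) with a peak in each of the 12 other tagged libraries, with domains in order from anterior to posterior, circles for replicate 1, squares for replicate 2 and D5 in red. D5 is highest on the left, at 35.9% and 37.7%, and on the right the libraries of D1 to D3 lie between 56.9% and 93.1% and those of D5 to D7 between 10.0% and 46.2%.

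The same order appeared in the width of regions found in all 10 lists, which were likewise selected without the other domains. Each median below was taken over the regions with a peak in that library, and regions without one were left out. This kept 200 to 239 of the 241 narrower, 86 to 96 of the 96 wider and 12483 to 13655 of all 13761 regions. For the 241 regions narrower in D4 nuclei, the median log2 width relative to whole embryos was -0.10 to -0.35 in the 6 libraries of D5 to D7. It was -0.02 to 0.06 in the 6 libraries of D1 to D3. Over all 13761 regions these medians were -0.04 to 0.03. Over the 96 regions wider in D4 nuclei they were 0.07 to 0.30 in D5 to D7 and 0.02 to 0.18 in D1 to D3, so the 2 groups of domains overlapped there. Since these libraries and D4 nuclei are set against the same whole embryos, the values share their reference and are given side by side, with no test. In nuclei of a pool, a lower share of nuclei with an open region and a less open region in each nucleus cannot be told apart, and this holds for every difference above.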

How the data were processed

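The authors deposited 1 list of narrow ATAC-seq peaks per library, on build dm3. Per the submitters' processing notes, Bowtie2 2.2.9, SAMtools 1.3.1 and MACS2 2.1.1.2 were used, and genomic DNA served as the reference for peak calling per the series design. The deposited score of a peak was within 1 of 10 times its deposited -log10 q-value. The deposited signal value is the authors' fold enrichment and was used only as a rank or description within a list. Read depth, the handling of replicates and any shift of reads for the transposase are not given in the sources used here, so no interval from counts was computed. The genomic DNA library was not analysed here.

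Peaks of 10 lists were merged (at least 1 bp of overlap). Presence was tested with Fisher's exact test, values per library with exact permutation tests, and width, signal rank and covered bases with limma 3.58.1 in R 4.3.3, with Benjamini-Hochberg adjustment over all features and a threshold of 0.05. Windows of 100 kb needed a mean of at least 1000 covered bp, and 500 bp were added before the log2. Python 3.11.15, numpy 2.4.6, scipy 1.17.1 and matplotlib 3.10.9 were used.

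The number of libraries limits the precision. The fits were tested on simulated data: of 200 features shifted, 61.5% were recovered for width (0.5 log2, 13761 regions), 10% for rank (20 points, 13015 regions) and 93.5% for windows (0.5 log2, 1078 windows), with 7, 1 and 4 false calls. The simulated noise was normal, independent between libraries and of the spread that the fits gave. The simulation held no kinds of list, so its false calls do not measure those in the real lists.

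D4 nuclei and D4 whole embryos shared the strains A and B per the labels, which pairs them. Their deviations correlated at 0.245 for width and 0.462 for windows. Same-numbered D1 and D5 whole embryos, of different strains, correlated at 0.439 and 0.675, so the correlations do not show pairing by strain. In D4 the strain also coincides with the kind of list. Regions were named by a rule: the 10 D4-only and D4-missing regions with the highest width percentile, and the 10 windows, 10 widths and 5 ranks with the smallest p in each direction. Alternatives were equal list length, stricter peaks, other windows and scalings, the replicate block, and each library left out. The sets, rules and tests were chosen with earlier results of these data known. No dm3 genome or annotation was at hand, so gene lists, marker genes, motifs and sequences were not analysed here. Replicates were independent transgenic strains per the labels, except that both D3 libraries were of line A, and p-values measure the spread between these libraries.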

Additional observations from a re-analysis of the deposited data

Results flagged for a closer look

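In 55 groups of 8 whole-embryo libraries checked for a value far from the others, 4 held one, where chance gives about 1 in 20. In window 3R 12600001-12700000 D4 whole embryo replicate 1 had 25151 covered bp, above the other 7 libraries and nearest to D4 nuclei. In window X 22000001-22100000 D7 whole embryo replicate 2 had 917 covered bp, below the others. In region 3R 20583883-20585894 D1 whole embryo replicate 2 had 1678 covered bp, below the others, and in region 4 1013696-1014222 D1 whole embryo replicate 1 had 519 covered bp, above the others. The D4 libraries lay outside the whole-embryo range in all 4 features with these libraries included.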

How the results depend on the processing

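D4-only and D4-missing counts were 1345 and 497 with replicate 1 libraries alone and 577 and 632 with replicate 2 libraries alone, 452 and 451 against D4 whole embryos alone, and 231 to 876 and 135 to 458 with 1 library left out. Fisher's exact test made 0 presence calls in each setting, which shows no stability, since no setting could give an exact p below 0.0222 and 1 replicate number alone, 1 D4 library left out and D4 whole embryos alone could give none below 0.2, 0.222 and 0.333.

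Wider and narrower regions numbered 220 and 139 without centring and 330 and 345 over regions of at least 2 libraries, 0 and 0 against D4 whole embryos alone, and 65 to 137 and 142 to 267 with 1 library left out. Higher and lower signal ranks numbered 24 and 82 in full lists, 183 and 172 without lettered peaks, 0 and 0 against D4 whole embryos alone, and 3 to 30 and 31 to 215 with 1 library left out, with 36 and 43 lower ones without D5 or D7 whole embryos replicate 1. Windows higher and lower numbered 6 and 10 at 200 kb, 9 and 9 when shifted by 50 kb, 2 and 3 by number of peaks, 0 and 0 against D4 whole embryos alone, 24 and 3 without centring, 8 and 12 without D4-only and D4-missing peaks, and 0 to 23 and 0 to 27 with 1 library left out. For windows, no centring and those peaks left out were chosen after seeing the data.

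With the replicate block, 132 regions were wider and 290 narrower, 233 ranked higher and 206 lower, and 28 and 39 windows were called. Deviations of same-numbered libraries correlated at 0.0311 to 0.439 for width and 0.0250 to 0.675 for windows, so the numbers do not pair all 10 libraries, and the number coincides with the kind of list. Against D4 whole embryos alone, the replicate block by strain gave 0 and 0 for width, 0 and 0 for rank, and 20 and 34 windows.

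The difference in list length was 812 peaks without D4 replicate 2 (range -1288 to 812) and that in covered length -0.106 Mb without D4 replicate 1 (range -0.106 to 1.34), both turned in sign, and the median width differed by 22.2 to 29.2 bp. The D5 difference in D4-only regions was 7.49 points at equal length (exact permutation p = 0.303) and 20.9 to 22.7 with 1 D5 library left out (exact permutation p = 0.182, the smallest possible). That in D4-missing regions was -19.8 to -11.3. The cause was not tested for these changes. The 50 named windows, widths and ranks kept their sign in every alternative that gave them a value, though part of these values were weaker. They were picked by the smallest p, and the alternatives reuse the same libraries, so a kept sign does not show stability. The 50 kb, 200 kb and shifted windows gave the named windows none, and some peak filters left named regions out.

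With 2 D4 libraries, differences near the spread of whole embryos were not detectable, and unknown depth leaves weak peaks unsure.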

Other observations

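Of the 130 D4-missing regions 2 had a peak in all 12 other tagged libraries and 0 in none of them, and of the 223 D4-only regions 11 had a peak in both D5 lists and in no other tagged list. Peaks on heterochromatic sequences outside the main arms numbered 241 and 184 in D4 nuclei and 235 to 372 in whole embryos (exact permutation test, two-sided, p = 0.0889).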
